A study of Mus musculus with 2 samples.

Results

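Conventional CD4 T cells are described here in tumours grown at the site of peritoneal abrasion in mice. They were the cells with at least 2 UMIs (unique molecular identifiers, 1 per captured RNA molecule) of Cd3d, Cd3e and Cd3g together, at least 1 UMI of Cd4, none of Cd8a, Cd8b1 or Foxp3, at most 1 of Mki67 and Top2a, and at most 4 of C1qa, C1qb and C1qc. The rule selected 1267 of the 15156 cells kept for analysis, which had between 1000 and 8500 detected genes, from 1000 up to 100000 UMIs and no more than 10% of UMIs from mitochondrial genes. There were 701 of 8770 kept cells in the control IgG library and 566 of 6386 in the Activin A neutralizing antibody library.

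The host animals were female C57BL/6 mice of 6 to 8 weeks, all injected intraperitoneally with syngeneic ovarian cancer cells of genotype p53-/-, myc, Hras after abrasion of the peritoneum. From the day after injection they received either Activin A neutralizing antibody or control IgG into the peritoneum every day. The series text gives 10 days of treatment with 8 antibody and 7 IgG mice. The paper differs from it in the days and, for the single-cell experiment, in the mice, so how many were pooled in each library is not settled. Tissue of each group was pooled over mice, digested with enzymes and depleted of red and dead cells, without sorting, so each group was 1 library and mice could not be told apart. All tumours came from 1 cancer line, and both groups were abraded. Differences between the libraries therefore have no replicate check, and no p-value was calculated. Intervals below are exact 95% intervals that cover counting error only.

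CD4 T cells recognise peptides on MHC class II molecules through the T cell receptor and help other immune cells through surface ligands, such as CD40 ligand, and through cytokines. Naive cells recirculate through lymphoid organs under control of the factor Klf2 and its target S1pr1. After antigen contact, immediate-early factors such as Nr4a1 and Nr4a3 are induced and cells differentiate into helper types, of which Th1 cells express Tbx21 and Ifng, Th2 cells Gata3 and Il4, Th17 cells Il17a, and follicular helper (Tfh) cells Bcl6, Cxcr5 and Il21. Foxp3 marks regulatory T cells.

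Stretches ahead of the start sites of Klf2 and Nr4a3 are shown because these genes had among the lowest and the highest antibody to IgG ratios of genes whose UMIs were spread over many cells. Klf2 lies on chromosome 8 at 72319033 to 72321656 and Nr4a3 on chromosome 4 at 48045153 to 48086447, both on the plus strand of GRCm38. The sequences are RefSeq's (GRCm38.p6), read on the plus strand at chr8:72318812-72319032 and chr4:48045055-48045152. Capitals mark a MEF2 element (the half-site CTAAA followed by its reverse complement TTTAG, so the same on both strands) ahead of Klf2 and the cyclic AMP response element half-site (TGACG or, on the other strand, CGTCA) ahead of Nr4a3.
Klf2: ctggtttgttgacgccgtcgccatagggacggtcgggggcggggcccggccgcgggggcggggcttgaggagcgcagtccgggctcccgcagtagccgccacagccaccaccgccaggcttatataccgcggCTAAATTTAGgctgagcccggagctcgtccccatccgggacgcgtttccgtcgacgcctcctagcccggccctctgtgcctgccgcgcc
Nr4a3: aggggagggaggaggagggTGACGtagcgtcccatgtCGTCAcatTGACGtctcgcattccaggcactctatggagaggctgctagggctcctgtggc
The MEF2 letters occurred 1 time in the window of Klf2, and were present in 12 of 32851 promoter windows cut to the same length, or 0.0365%. The half-site occurred 3 times in the window of Nr4a3, and at least 1 match was present in 1716 of 32851 windows of that length, or 5.22%. Each window was searched and marked only for its own letters. The letters TGACG also occur in the Klf2 window, in lower case. These matches are a description of letters and say nothing of binding.

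Of the kept cells, conventional CD4 T cells were 7.99% (7.43 to 8.58) in the IgG library and 8.86% (8.18 to 9.59) in the antibody library. The log2 ratio of these shares was 0.15, with an interval from -0.01 to 0.31. As a share of the 5436 and 4168 cells with CD3 UMIs they were 12.9% and 13.6%, a log2 ratio of 0.07 (-0.09 to 0.24). The difference between the libraries was within counting error on both denominators. It was not when members with any C1q UMI were left out (617 and 549 remained), with log2 ratios of 0.29 (0.12 to 0.46) of kept cells and 0.21 (0.05 to 0.38) of CD3 T cells. Beside 17 and 11 Foxp3-positive CD4 T cells, they made up 97.6% and 98.1% of CD4 T cells that met the other limits. CD8 T cells chosen by the same limits, with at least 1 Cd8a or Cd8b1 UMI and no Cd4 or Foxp3 UMI, numbered 2167 and 1892.

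A conventional CD4 T cell held a median of 4493 UMIs and 1974 genes in the IgG library and 4261.5 UMIs and 1951.5 genes in the antibody library. Their mitochondrial share had a median of 3.06% and 2.24%. The members summed to 3581978 and 2787197 UMIs, so that 1 UMI was worth 0.279 and 0.359 CPM (UMIs scaled to a common total per library, as counts per 1e6), and a gene at 0 could have up to 0.838 and 1.08 CPM by the 3-count limit. The libraries shared 19 barcodes among kept cells, and 1 among the members.

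The rule rests on few molecules, since 338 of 701 and 262 of 566 members had exactly 1 Cd4 UMI. Cells that met every other limit but had no Cd4 UMI numbered 974 and 759. In the cells with exactly 1 Cd4 UMI, Cd40lg, the gene of CD40 ligand, was at 81.7 and 117 CPM, against 28.3 and 50.7 CPM in the cells without a Cd4 UMI. Trdc, the constant gene of the delta chain, went the other way, at 10.5 and 5.29 CPM inside against 129 and 99.3 CPM outside. Cells just outside the C1q limit (5 or more UMIs) were 12 and 4, and carried Lyz2 at 2643 and 9313 CPM, against 21.05 and 72.4 CPM in the 84 and 17 members with 1 to 4 C1q UMIs. At the CD3 limit the IgG library went the other way, with Lyz2 at 3199 CPM in the 25 members with exactly 2 CD3 UMIs and at 34.6 CPM in the 13 cells with 1. The 38 and 22 cells just outside the limit on division, with 2 Mki67 and Top2a UMIs, had Cd40lg at 51.1 and 36.7 CPM and Lyz2 at 601 and 0 CPM. The 128 and 84 members with 1 such UMI had Cd40lg at 57.1 and 103 CPM and Lyz2 at 30.6 and 14.4 CPM.

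The marker genes of conventional CD4 T cells were present in both libraries. Cd4 (chromosome 6, 124864692 to 124888221, minus strand), which the rule used, was at 376 and 394 CPM. Cd40lg (chromosome X, 57212143 to 57224042, plus strand) was at 76.5 CPM with IgG and 97.9 CPM with the antibody, against 2.16 and 4.31 CPM in CD8 T cells. It had a UMI in 29.0% (25.6 to 32.5) and 32.9% (29.0 to 36.9) of members and in 0.969% and 1.37% of CD8 T cells, whose median depths were 4480 and 4031.5 UMIs. After thinning to 2000 UMIs per cell, which left out 14 and 10 shallower members, the shares were 16.6% and 17.6%. Cd40lg had no UMI in the 28 Foxp3-positive cells.

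Tnfrsf4 (chromosome 4, 156013843 to 156016612, plus strand), the costimulatory receptor OX40, was at 174 and 240 CPM in members and at 9.42 and 8.73 CPM in CD8 T cells. Icos (chromosome 1, 60977927 to 61000320, plus strand), the inducible costimulator, was less selective, with 367 and 392 CPM against 226 and 275 CPM. Izumo1r (chromosome 9, 14885814 to 14903949, minus strand), which encodes folate receptor 4, was at 51.1 and 48.1 CPM against 9.42 and 11.1 CPM. All 4 markers that the rule did not use were thus above their level in CD8 T cells in each library. Foxp3-positive cells had higher levels than the members of Tnfrsf4 (666 and 757 CPM), Icos (652 and 870 CPM) and Izumo1r (207 and 451 CPM).

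**Figure D1:**
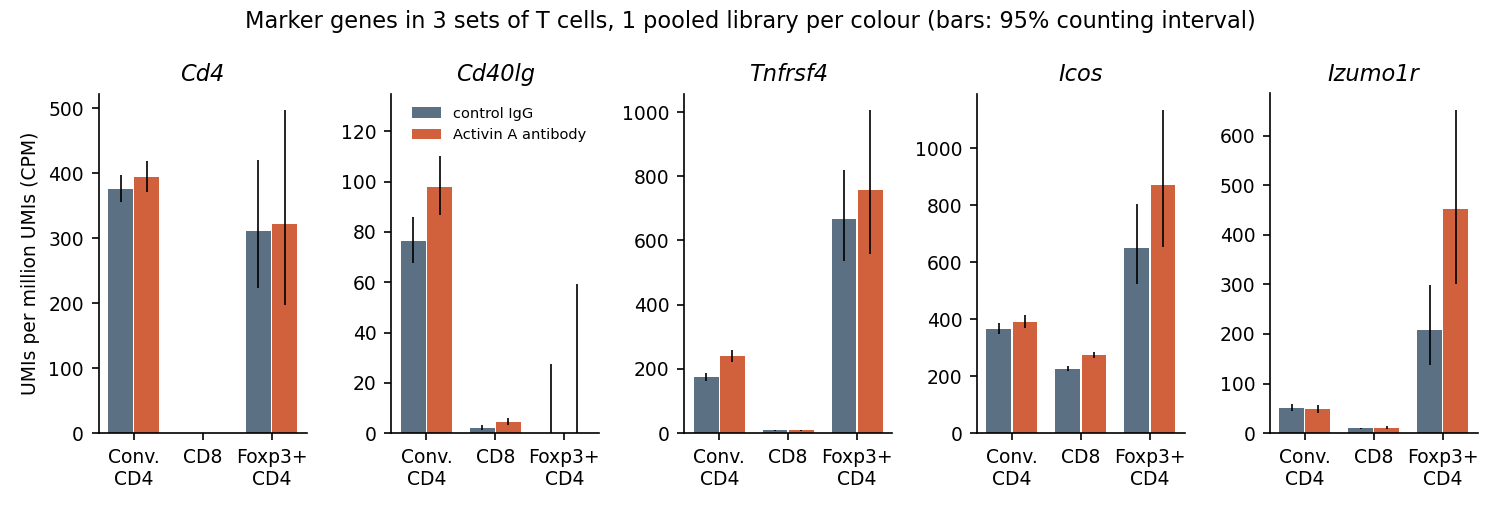
CPM of the 5 marker genes in conventional CD4 T cells, CD8 T cells and Foxp3-positive CD4 T cells, with 1 bar per pooled library and exact 95% counting intervals. Cd40lg stood at 76.5 and 97.9 CPM in conventional CD4 T cells and at 4.31 CPM or less in the other sets, whereas Tnfrsf4, Icos and Izumo1r were highest in the Foxp3-positive set of 28 cells.

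Over CD8 T cells, 1.82% of 11700 genes were at least 1.5-fold higher in both libraries and 1.16% at least 1.5-fold lower, on CPM plus 10. The cells compared were chosen by Cd4 and Cd8, which left those genes out. Tnfrsf4 led with log2 ratios of 3.25 and 3.74 in the IgG and antibody libraries, followed by the transcription factor Maf (3.03 and 3.52) and Cd40lg (2.83 and 2.92). Furin, a protease that processes precursor proteins such as TGF beta, was at 185 and 301 CPM in members and 44.8 and 46.6 CPM in CD8 T cells. Tbc1d4, a regulator of glucose transporter traffic, was at 118 and 138 CPM against 32.8 and 35.7 CPM. St6galnac3, a sialyltransferase, was the most abundant of the 10 leading genes, at 1188 and 1218 CPM against 418 and 401 CPM. Asb2, Podnl1, Ass1 and Ckb completed the 10.

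Granzymes and perforin, proteins of cell killing, were among the 10 genes furthest below CD8 T cells. Gzmb, a granzyme, was at 70.1 and 81.8 CPM in members and 995 and 887 CPM in CD8 T cells. Gzma was at 67.0 and 74.99 CPM against 1019 and 599 CPM, and Prf1, the pore-forming perforin, at 7.54 and 6.46 CPM against 113 and 106 CPM. The chemokine gene Ccl5 was lower as well but still abundant in members, at 2439 and 2309 CPM against 13270 and 14548 CPM. It had a UMI in 67.0% and 67.1% of members. Klrd1 and Cd160, receptors shared with NK cells, and Ly6c2, Smyd1, Setbp1 and Fgf13 were the others of the 10.

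Over the 28 Foxp3-positive CD4 T cells, 10.1% of 8806 genes were at least 1.5-fold higher in members and 4.12% lower in both libraries, a wide spread for sets of 17 and 11 cells. Cd40lg, Tcf7 (a factor of naive and memory T cells), Tbc1d4 and Tnfsf8 (CD30 ligand) were among the 10 highest, as were the collagen genes Col1a1 and Col3a1. The fibroblast and mesothelial markers, with Col3a1 the most abundant, had 93.9% and 89.1% of their UMIs in only 3 and 5 members. Tcf7 was at 151 and 120 CPM in members and at 7.40 and 0 CPM in Foxp3-positive cells, with 1 UMI there. Ikzf2, which encodes Helios and is a common gene of regulatory T cells, was at 202 and 264 CPM in members against 2665 and 3014 CPM. Il2ra, the alpha chain of the interleukin 2 receptor, was at 25.1 and 42.3 CPM against 800 and 355 CPM, and Tnfrsf9 (4-1BB), Il10, Klrg1 and Itgb8 were also among the lowest 10. Members in which Foxp3 RNA went undetected cannot be told apart from cells without it. Of the members, 37.2% and 43.5% had an Ikzf2 UMI, against 23.5% and 28.4% of CD8 T cells, and 8.70% and 10.1% an Il2ra UMI, against 5.45% and 5.34% of CD8 T cells.

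The antibody and IgG libraries were compared on UMIs summed over members. Of 8738 genes with at least 50 UMIs over both libraries, 1.44% (126) were at least 1.5-fold higher with the antibody and 1.33% (116) at least 1.5-fold lower, on CPM plus 10, together 2.77%, and 0.298% and 0.401% passed 2-fold. The median log2 ratio of all of them was 0.01. The sides were of about equal size.

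The 24 genes furthest apart between the libraries were mostly not those of T cells, and in 19 of 24 more than 50% of the UMIs of the higher library lay in 1 cell. Acta2, the smooth muscle actin of myofibroblasts, was at 79.3 CPM with IgG and had 1 UMI with the antibody, but 280 of its 284 UMIs in the IgG library were in 1 cell. Spp1, which encodes osteopontin, was at 58.9 and 471 CPM, and 1189 of its 1312 UMIs in the antibody library were in 1 cell. Without that cell and its counterpart, Spp1 was at 52.5 and 44.9 CPM. Dlk1, a marker of the cancer-like cells, had 270 of 296 UMIs in 1 cell of the antibody library, and its log2 ratio was 2.71 with and 0.17 without the cell.

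Other genes with their highest ratio in the antibody library were Gzmc, Hmga2, S100a9, Mid1, Trf, Serpinf1, Cdkn2a, Il13, Nbea and Sema3a. Il13, a Th2 cytokine, was at 7.82 and 39.1 CPM, with 70 of its 109 UMIs in 1 cell, and 17 of 701 and 19 of 566 members had a UMI of it. The genes with the lowest ratio were, beside Acta2, Lyz2, Slpi, Cryab, Timp3, Timp1, Tagln, Apoe, Fstl1, Postn, Clu and Bgn. Lyz2, the lysozyme of macrophages, lay in a few cells rather than 1. It was at 307 and 27.6 CPM, or 204 and 19.1 CPM without its top cell in each library, and had a UMI in 11.7% and 4.59% of members. The top 10 cells held 93.0% of its UMIs in the IgG library, and without the top 10 of each library it was at 22.4 and 6.04 CPM.

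**Figure D2:**
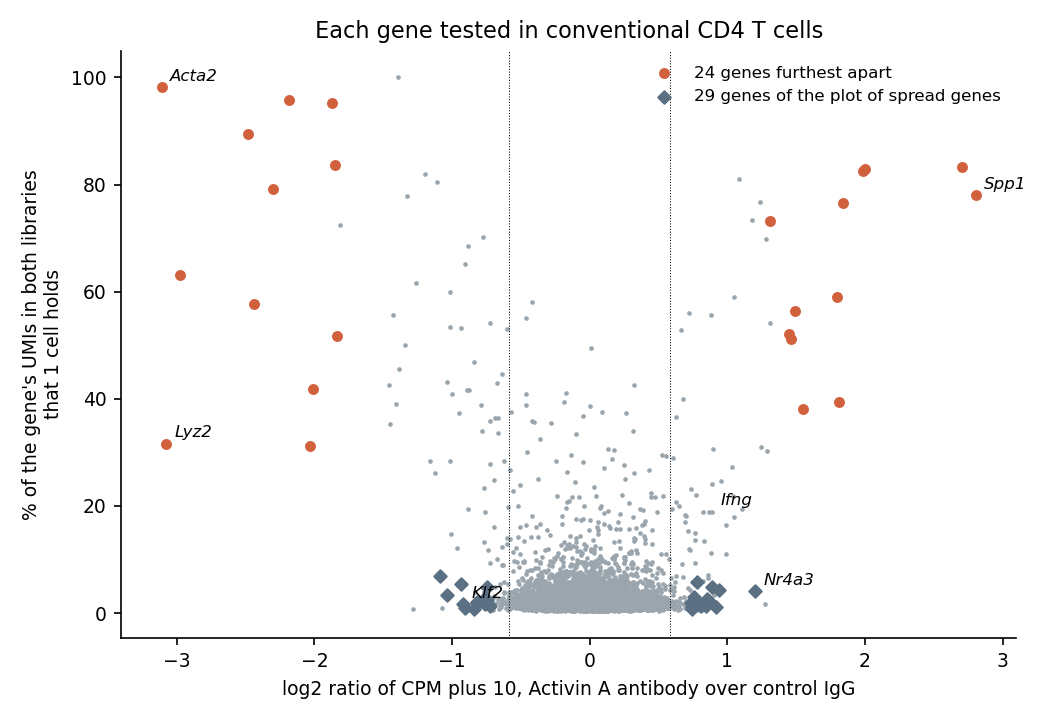
Each of the 8738 genes tested in conventional CD4 T cells, with the log2 antibody to IgG ratio of CPM plus 10 on the x axis and, on the y axis, the percent of the gene's UMIs in both libraries that its top cell holds; dotted lines mark 1.5-fold. The 24 genes furthest apart (red) sit high on the y axis, while the 29 genes of the plot of spread genes (blue diamonds) sit near its foot.

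Markers of other cell types moved with these genes. The 14 macrophage and monocyte markers summed to 562 CPM with IgG and 160 CPM with the antibody, with Lyz2 the most abundant and 0 and 1 of the 14 without a UMI. The 12 fibroblast and mesothelial markers summed to 695 and 315 CPM (Col3a1 the most abundant, 0 and 2 without a UMI). The 7 markers of cancer-like cells summed to 96.6 and 338 CPM (Lgals7 the most abundant, 0 and 1 without a UMI). The 10 neutrophil markers summed to 10.3 and 70.7 CPM (S100a9 the most abundant, 4 without a UMI in each). The 12 B cell markers were at 1190 and 1037 CPM (Cd74 the most abundant, 0 and 1 without a UMI), the 12 dendritic cell markers at 647 and 977 CPM (Cst3 the most abundant, 1 without a UMI in each), and the 14 of NK and innate-like T cells at 226 and 188 CPM (Fcer1g the most abundant, none without a UMI). The red cell markers had 0.558 and 1.08 CPM in all (Alas2 the most abundant, 3 and 4 of 5 without a UMI), and Cd8a and Cd8b1 were at 0 by the rule. The part of these cell types in the results was not tested.

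Most of those UMIs lay in few cells. After genes that T cells also use were set aside, 45 of 701 and 41 of 566 members had at least 5 UMIs of the markers of fibroblasts, cancer-like cells, macrophages, neutrophils, B cells or dendritic cells, and these cells held 87.0% and 86.9% of the UMIs of those lists in members. No doublet caller was run, and whether these are doublets was not tested. Without them the count of genes at least 1.5-fold higher was 118 and of those lower 70. From the level of 21 such genes outside their top cells, free RNA made up an estimated 10.4% and 5.35% of the members' UMIs. Only 1 cell per gene and library was left out, so other cells that carry these markers can raise the estimate. It was too high for the acute-phase gene Saa3, at 44.1 and 15.4 CPM in members and 1597 and 1062 CPM in free RNA.

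Genes were therefore also described by how their UMIs were spread. In 7929 of the 8738 genes no single cell held more than 10% of the UMIs in either library, and of these 64 were at least 1.5-fold higher and 43 at least 1.5-fold lower with the antibody. This filter was chosen after the values were seen. The ranks below leave out mitochondrial, ribosomal, haemoglobin and immunoglobulin genes and unnamed gene models, which the counts of 64 and 43 include.

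Nr4a3, an orphan nuclear receptor induced by T cell receptor signals, had the highest ratio of the spread genes that were ranked. It was at 44.9 CPM with IgG and 117 CPM with the antibody, with a UMI in 15.5% and 28.1% of members and at most 5 and 20 UMIs in 1 cell. Its log2 ratio of CPM was 1.38 (1.10 to 1.66), against 0.80 (0.61 to 0.99) in CD8 T cells, a description only, since the gene was picked for its ratio in members. Nr4a1, of the same family, was at 62.0 and 116 CPM, a log2 ratio of 0.91 (0.66 to 1.16), against 0.60 in CD8 T cells. Their levels in barcodes with under 100 UMIs, which hold free RNA, also differed, at 19.1 and 32.9 CPM for Nr4a3 and 54.2 and 150 CPM for Nr4a1.

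The 15 highest of the ranked spread genes also included the following. Dusp5, a phosphatase of ERK kinases, was at 98.3 and 195 CPM, and Cish, an inhibitor induced by interleukin 2 signals, at 43.0 and 85.0 CPM. Tnfsf11, the ligand RANKL, was at 28.8 and 64.2 CPM in members and at 4.32 and 14.2 CPM in CD8 T cells. Cdkn1a, the cell cycle inhibitor p21, was at 49.1 and 96.9 CPM, and Fosl2, an AP-1 subunit, at 59.2 and 106 CPM. Kdm2b, a histone demethylase, had 172 and 296 CPM and a UMI in 49.5% and 62.5% of members. Marcksl1 was at 23.5 and 52.0 CPM, whereas in CD8 T cells it was at 20.6 and 19.3 CPM. Taco1, Ptprs, Rnaset2a, Csrnp1, Rgcc and Ell2 were the rest of the 15, and each of them had a log2 ratio above 0 in CD8 T cells too.

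Klf2 was at 166 CPM with IgG and 83.2 CPM with the antibody, with a UMI in 35.2% and 23.1% of members and at most 14 and 8 UMIs in 1 cell. The log2 ratio was -0.999 (-1.22 to -0.78) in members and -0.22 (-0.31 to -0.12) in CD8 T cells, where it was at 199 and 171 CPM. Klf2 too was picked for its ratio in members, so whether the sets differ was not tested. Its level in free RNA was 144 and 170 CPM.

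The other spread genes with the lowest ratios had diverse roles. Saa3, an acute-phase protein, was at 44.1 and 15.4 CPM, beside 1597 and 1062 CPM in free RNA. Subtracting free RNA took away more than its level in each library. The log2 ratio was then 0 by construction and shows nothing of a difference. Txnip, the thioredoxin-interacting protein, was at 262 and 135.3 CPM, and Tsc22d3, a gene induced by glucocorticoids, at 177 and 94.4 CPM. Both had log2 ratios below 0 in CD8 T cells too, of -0.65 for Txnip and -0.65 for Tsc22d3. Pik3ip1, an inhibitor of PI3 kinase, was at 22.3 and 8.97 CPM. Slamf6, a receptor of the SLAM family, was at 154 and 89.7 CPM, with a log2 ratio of -0.78 (-1.005 to -0.57) in members and -0.27 in CD8 T cells. The sialic acid enzymes Cmah and St6gal1 were at 81.8 and 44.1 CPM and at 70.6 and 37.7 CPM. Pde2a, Arl5c, Gstp1, Mirt1, Gab3 and Nudt6 were also among the lowest.

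**Figure D3:**
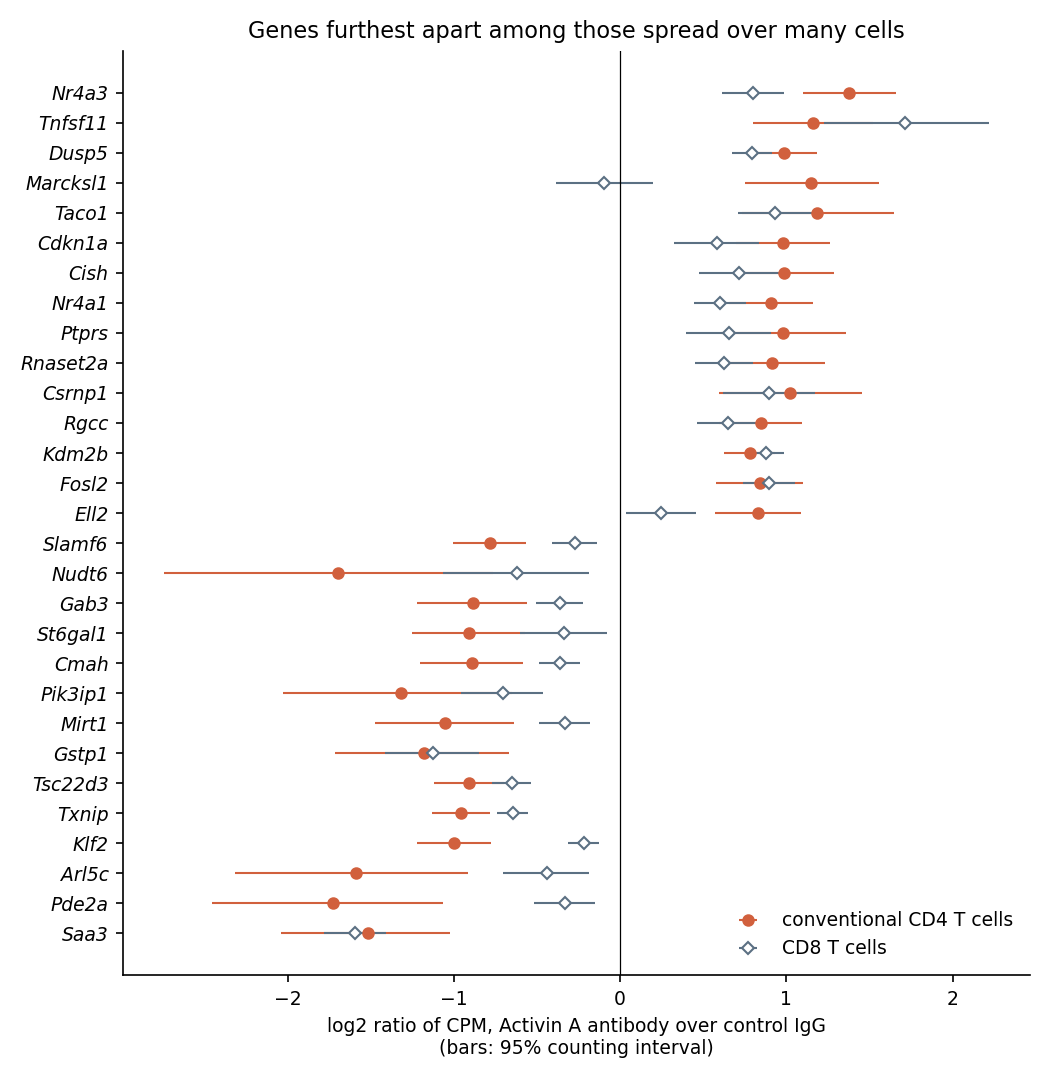
Log2 ratio of CPM, antibody over control IgG, of the 15 highest and 14 of the lowest ranked genes whose UMIs were spread over many cells. Conventional CD4 T cells are red and CD8 T cells open diamonds, with 95% counting intervals. Of the 15 highest, Marcksl1 is at about 0 in CD8 T cells, and Klf2 is at -0.999 in conventional CD4 T cells and -0.22 in CD8 T cells.

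Gene lists were described by their summed CPM and by how many of their tested genes passed 1.5-fold, to be read beside 1.44% higher and 1.33% lower over all genes and a median log2 ratio of 0.01. The naive and recirculating list was lower with the antibody, at 2262 and 1817 CPM, a log2 ratio of -0.32 (-0.37 to -0.27), and its 14 tested genes had a median of -0.35. Klf2 and Dapl1 were at least 1.5-fold lower and Igfbp4 1.5-fold higher. The log2 ratio of Igfbp4 was -0.017 without cells with a Cd79a, Ms4a1, Csf1r, Lyz2 or Fcer1g UMI. Foxp1 and Il7r, the most abundant genes of the list, were at 424 and 321 CPM and at 358 and 262 CPM. The list's log2 ratio was -0.18 in CD8 T cells and 0.40 in free RNA.

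The immediate-early list was higher with the antibody, at 4747 and 6095 CPM, a log2 ratio of 0.36 (0.33 to 0.39). Nr4a3, Fosl2, Egr3 and Nr4a1 of its 22 tested genes were at least 1.5-fold higher and none lower, and the median was 0.29. Junb and Jund, AP-1 subunits and the most abundant genes, were at 1009 and 1462 CPM and at 603 and 799 CPM. The list's log2 ratio was 0.27 in CD8 T cells and 0.73 in free RNA. With free RNA subtracted, the ratio in members was 0.32.

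The activation and costimulation list had a log2 ratio of 0.26 (0.22 to 0.30), the same side as in CD8 T cells (0.26) and free RNA (0.56). Of its 16 genes only Tnfsf11 was 1.5-fold higher and none lower, and the median was 0.30. Nfkbia, an inhibitor of NF-kB, was at 357 and 535 CPM. Il2rb, the beta chain of the interleukin 2 receptor, was at 356 and 436 CPM, and Tnfrsf4 and Cd40lg had log2 ratios of 0.44 and 0.32 on CPM plus 10.

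Interferon-stimulated genes were also higher with the antibody, with a log2 ratio of 0.31 (0.28 to 0.35), against 0.40 in CD8 T cells and in free RNA. Isg15, Usp18, Rnf213 and Ifit1 of 37 tested genes were at least 1.5-fold higher and none lower, with a median of 0.28. Isg15, a ubiquitin-like protein, was at 108 and 179 CPM with a UMI in 23.1% and 28.1% of members. Ifi27l2a, the most abundant of the list, was at 1275 and 1529 CPM.

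Among helper programmes, Th1 genes were the most abundant, at 6473 and 6829 CPM, with a log2 ratio of 0.08 (0.05 to 0.11), or 0.16 without Ccl5, the most abundant of them. Tbx21, the Th1 factor T-bet, was at 134.8 and 187 CPM and had a UMI in 37.9% (34.3 to 41.7) and 47.7% (43.5 to 51.9) of members. In cells thinned to 2000 UMIs the shares were 21.4% and 28.4%. Its level in CD8 T cells was 140 and 191 CPM. Ifng, the Th1 cytokine, was at 185 and 351 CPM, but 310 of its 977 UMIs in the antibody library lay in 1 cell. Without the top cell of each library it was at 180 and 241 CPM, and 36.8% (33.2 to 40.5) and 41.3% (37.3 to 45.5) of members had a UMI. Runx3, a factor of Th1 and CD8 cells, was at 125 and 193 CPM, and Il12rb2, a chain of the interleukin 12 receptor, at 49.97 and 88.3 CPM. Ifng, Runx3 and Il12rb2 were the 3 of 16 tested genes past 1.5-fold, all higher. Without its top cells Ifng had a log2 ratio of 0.40 and was no longer past 1.5-fold.

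Members with an Ifng UMI more often also had a UMI of Cxcr6, a homing receptor of tissue T cells. The shares were 85.3% and 86.8%, against 55.8% and 61.1% of members without Ifng, beside a median depth of 5411.5 and 4892.5 UMIs with Ifng and 3974 and 3870 UMIs without. Tcf7 went the other way despite that depth, in 20.2% and 14.1% of members with Ifng and 43.8% and 39.5% without. Both patterns were present in each library.

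The Th17 cytokine genes were at or near 0. Il17a had 2 and 0 UMIs and Il17f none in either library. The Th17 list's log2 ratio was 0.26, and the median of its tested genes was -0.08. Its most abundant genes were Rora (512 and 560 CPM) and Stat3 (320 and 506 CPM), broadly expressed factors, and Stat3 was its 1 gene of 6 past 1.5-fold. In CD8 T cells Stat3 was at 278 and 433 CPM. The Th2 list was low, at 193 and 315 CPM, a log2 ratio of 0.71 (0.56 to 0.85), against 0.46 in CD8 T cells and 0.80 in free RNA. Its sum includes single cells with many UMIs of its genes, and the median of its tested genes was 0.41. Areg and Il13 were the 2 of 8 tested genes past 1.5-fold. Without its top cells Il13 was at 6.43 and 14.0 CPM, a log2 ratio of 0.55 and no longer past 1.5-fold. Gata3, the Th2 factor, was at 70.4 and 95.1 CPM, and Il4 had 2 and 17 UMIs, of which 11 in the antibody library were in 1 cell. Areg, the growth factor amphiregulin, was at 11.4 and 42.3 CPM, and at 8.67 and 25.6 CPM without its top cells.

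Tfh genes summed to 1494 and 1501 CPM, a log2 ratio of 0.01 (-0.05 to 0.07), and 2 of 11 tested genes were past 1.5-fold on each side. Slamf6 and Il6ra, a chain of the interleukin 6 receptor, were lower, and Angptl2 and Il21 higher. Il21, the helper cytokine, was at 7.26 and 21.9 CPM with a UMI in 18 and 25 members, and without its top cells at 6.16 and 14.4 CPM. Bcl6 was at 62.5 and 63.5 CPM, and Cxcr5 had 25 and 7 UMIs.

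Inhibitory receptors summed to 965 and 1048 CPM, a log2 ratio of 0.12 (0.05 to 0.19). Ctla4 was at 407 and 442 CPM and Pdcd1, which encodes PD-1, at 193 and 197 CPM, with a Pdcd1 UMI in 45.6% and 48.1% of members. Lag3 was the 1 of 9 tested genes past 1.5-fold, at 37.7 and 65.3 CPM, and at 91.3 and 140 CPM in CD8 T cells. Regulatory T cell genes other than Foxp3 had a log2 ratio of 0.12 (0.06 to 0.19), with Areg past 1.5-fold higher and Nrp1, which encodes neuropilin 1, lower of 9 tested. Nrp1 was at 121 and 73.6 CPM in members and at 90.6 and 94.1 CPM in CD8 T cells.

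The cytotoxic list was at 4160 and 4433 CPM, a log2 ratio of 0.09, or 0.30 without Ccl5, its most abundant gene. Its 3 genes of 13 past 1.5-fold, Ccl3, Ccl4 and Gzmc, each had its most UMIs in the same single antibody cell, of 19611 UMIs, which also held the most Ifng. Ccl4, a chemokine, was at 131 and 281 CPM, and at 102 and 202 CPM without the top cell of each library. Gzmc had 107 of its 118 UMIs of the antibody library in it. Chemokine and homing receptors had a log2 ratio of -0.15 (-0.19 to -0.11), with 1 of 16 tested genes at least 1.5-fold lower, none higher, and Itga4, an integrin chain, the most abundant at 682 and 572 CPM.

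Activin signals through type 2 receptors such as Acvr2a and type 1 receptors such as Acvr1b to SMAD proteins, and TGF beta through Tgfbr2. None of the 18 tested genes of the activin and TGF beta list was past 1.5-fold on either side, and the summed level had a log2 ratio of 0.18 (0.12 to 0.23), against 0.21 in CD8 T cells and 0.52 in free RNA. Tgfbr2 was at 270 and 281 CPM, with a UMI in 67.9% and 71.4% of members, and Smad7, an inhibitory SMAD induced by the pathway, at 192 and 212 CPM. Acvr2a was at 35.7 and 26.6 CPM and Acvr1b at 7.54 and 7.18 CPM. Inhba, whose product forms activin A, had 3 and 4 UMIs, at or near the 3-count limit.

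Lists of general cell functions complete the set. T cell receptor complex and proximal signalling genes had a log2 ratio of -0.01 (-0.04 to 0.01), with 0 of 16 past 1.5-fold, heat shock genes 0.08 and MHC class I pathway genes 0.04. Glycolysis genes were lower, with a log2 ratio of -0.19 (-0.22 to -0.16) in members and -0.36 in CD8 T cells, and Gapdh at 2081 and 1812 CPM. Cell division genes, which the rule limits, had a log2 ratio of -0.13. None of the tested genes of the heat shock, MHC class I, glycolysis and cell division lists was past 1.5-fold.

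**Figure D4:**
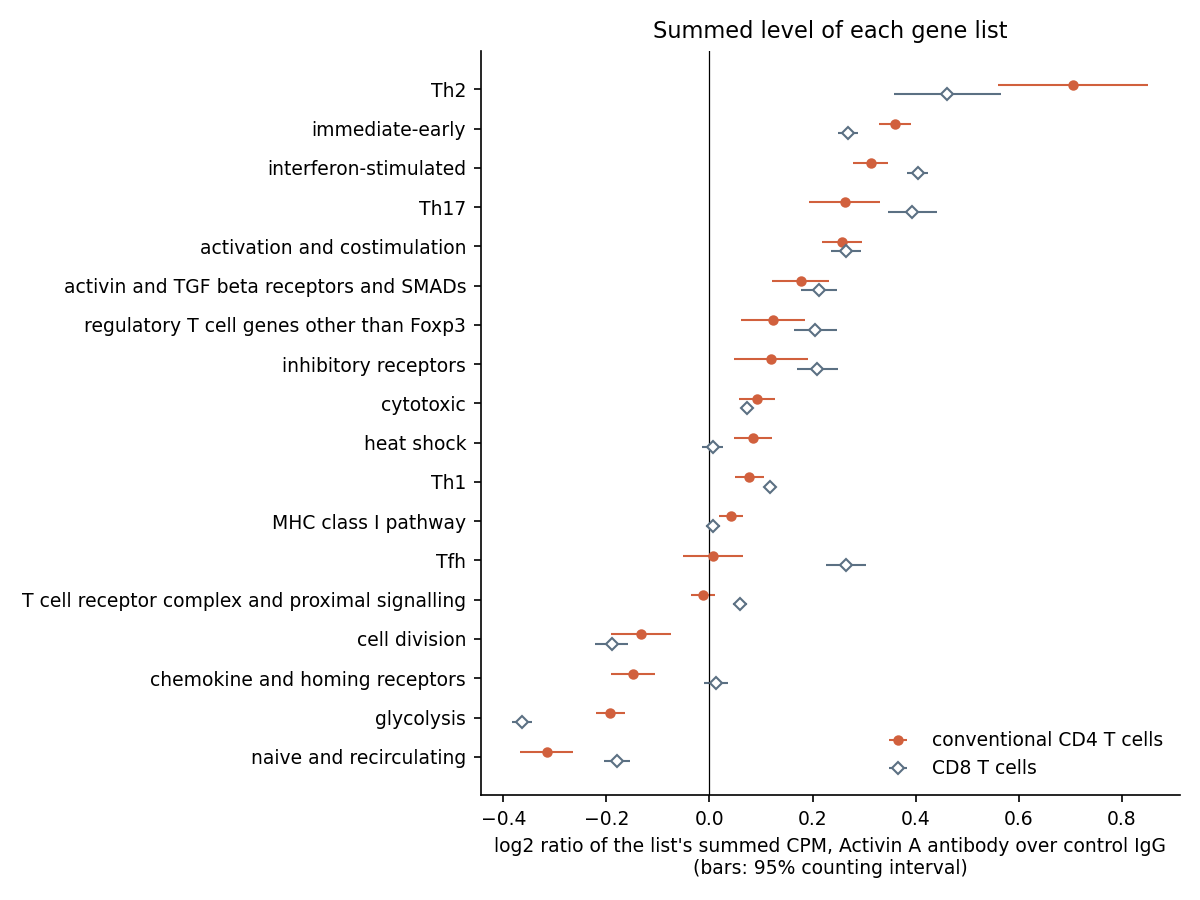
Log2 ratio of the summed CPM of each of 18 gene lists, antibody over control IgG, in conventional CD4 T cells (red) and CD8 T cells (open diamonds), with 95% counting intervals. The naive and recirculating list is at -0.32 and the immediate-early list at 0.36 in conventional CD4 T cells, and both have the same sign in CD8 T cells.

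Clustering divided the conventional CD4 T cells into 7 sub-clusters, made without the 242 genes past 1.5-fold so that these could not set the shares. They are called by number and leading genes, and their leading genes are no finding. Sub-cluster 1 (416 cells) was led by AA467197, Gzmb and Aldoc, sub-cluster 2 (323 cells) by Acoxl and Itga1, sub-cluster 3 (291 cells) by Aff3, Tcf7 and Nsg2, and sub-cluster 4 (100 cells) by Rap1gap2, Nebl and Klf2, with S1pr1 among its first 10. Sub-cluster 5 (64 cells) was led by Tnfrsf4, sub-cluster 7 (35 cells) by Satb1, Bach2 and Bcl2. Sub-cluster 6 (38 cells), led by Cd74, H2-Aa and Tyrobp, genes of antigen-presenting and myeloid cells, had a median of 12117 UMIs.

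Sub-cluster 4 made up 11.0% (8.77 to 13.5) of members in the IgG library and 4.06% (2.59 to 6.04) in the antibody library, a log2 ratio of -1.43 (-2.17 to -0.75). Klf2 leads it and differed between the libraries. It was left out of the clustering, but genes that vary with it were not. Sub-cluster 2 went the other way, from 21.8% (18.8 to 25.1) to 30.0% (26.3 to 34.0), and sub-cluster 3 was at 25.5% and 19.8%, a log2 ratio of -0.37 (-0.72 to -0.02). Sub-clusters 1, 5, 6 and 7 differed by less than their counting intervals, with sub-cluster 1 at 30.4% and 35.9%. With all genes used in clustering, sub-cluster 1 was at 27.1% and 33.7%, and its log2 ratio of 0.32 (0.02 to 0.61) no longer held 0 in its interval.

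Levels within sub-clusters are few UMIs each. Klf2 was at 575 and 301 CPM within sub-cluster 4 (209 and 32 UMIs), at 73.0 and 34.1 CPM within sub-cluster 2 (56 and 27 UMIs) at 306 and 233 CPM within sub-cluster 3 (199 and 93 UMIs) and at 32.5 and 30.6 CPM within sub-cluster 1 (41 and 32 UMIs). Nr4a3 was at 41.2 and 89.8 CPM within sub-cluster 1, at 31.3 and 106 CPM within sub-cluster 2 and at 64.6 and 213 CPM within sub-cluster 3. The higher Nr4a3 level of the antibody library was thus present within each of the 3 largest sub-clusters, and in sub-cluster 6 (43.0 and 152 CPM). In sub-clusters 4, 5 and 7 its difference was within counting error, with 13 UMIs or fewer per library. Nr4a3 was picked for its ratio in these same cells. The lower Klf2 level was present in sub-clusters 2, 3 and 4 but within counting error in sub-cluster 1. With all genes used in clustering, the Klf2 ratio of sub-cluster 3 was within counting error too, at -0.29 (-0.68 to 0.09). In the small sub-cluster 6 Klf2 was at 172 and 74.3 CPM, and in sub-cluster 7, where it was highest, at 653 and 674 CPM, within counting error.

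**Figure D5:**
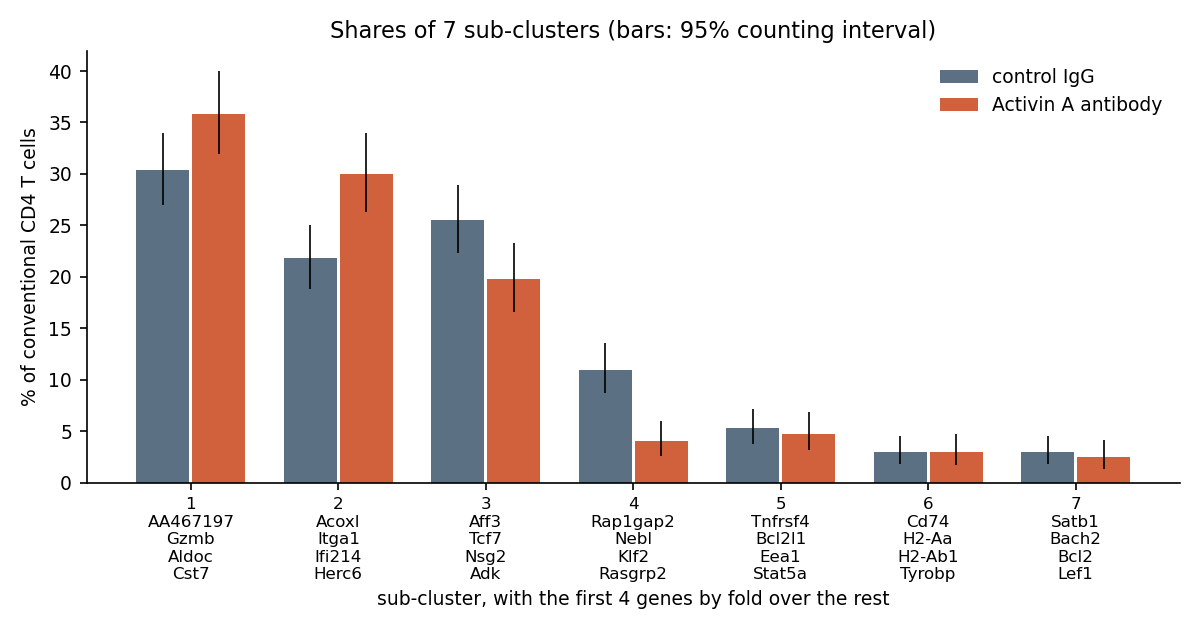
Share of conventional CD4 T cells in each of 7 sub-clusters, in percent, with 1 bar per pooled library and exact 95% counting intervals; the first 4 genes by fold over the rest stand under each number. Sub-cluster 4 is at 11.0% in the control IgG library and 4.06% in the antibody library, and sub-cluster 2 at 21.8% and 30.0%.

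Few molecules reached the variable segments of the T cell receptor in these libraries, which are read from the 3 prime end of RNA. Members had 110 and 72 UMIs of Trbv segments, in 94 and 62 cells. Trbv12-2 took 18.2% (11.5 to 26.7) and 9.72% (3.999 to 19.0) of them, and Trbv3 6.36% (2.60 to 12.7) and 12.5% (5.88 to 22.4). In CD8 T cells Trbv3 took 38.8% (33.2 to 44.6) and 38.2% (32.2 to 44.6) of 299 and 251 UMIs, above the interval of the members in both libraries. Mice were pooled, so a segment's share can come from 1 animal.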

How the data were processed

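Peritoneal tumour tissue of each treatment was pooled over mice and profiled as 1 droplet library per group with the 10x Genomics 3 prime kit. The labels and the study's methods name different versions of its chemistry. The authors deposited unnormalized UMI counts of each gene in every barcode (1484815 and 1316737), made with Cell Ranger on mm10. The submitters' notes name version 7.0.1 and the file headers version 4. Whether reads in introns were counted is not given in the sources used here. Total counts were 98174850 UMIs (control IgG) and 74117462 UMIs (antibody).

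From these counts, cells were kept by their number of genes and UMIs and their mitochondrial share as stated in the opening, and members were chosen by the rule of the opening. No doublet caller was run. UMIs were summed over members and given as CPM, with exact Poisson, Clopper-Pearson or conditional binomial 95% intervals. PCR and capture error lie outside these intervals, as does variation between mice. Ratios across genes used CPM plus 10 and genes with at least 50 UMIs over both libraries. With 1 library per group no test was run.

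Named genes were the markers and genes of the rule, the 12 highest and 12 lowest ratios without mitochondrial, ribosomal, haemoglobin, immunoglobulin and unnamed gene models, the 10 highest and lowest against each other T cell set, the 2 most abundant genes and those past 1.5-fold of each of 27 lists, and 20 lineage genes. The 15 highest and 15 lowest spread genes, ranked without the same classes of genes, were added after the values were seen. So were genes without their top cell, genes just outside the limits of the rule and the leading genes of sub-clusters. Some genes that these rules name are not reported here. Members and lists were chosen with earlier results of these data known. Of the listed gene names, 2 were not matched in the files. Sub-clusters came from scanpy 1.11.5 and leidenalg 0.10.2 (2000 variable genes, 20 components, 15 neighbours, resolution 0.5, seed 1). Free RNA was read from barcodes with under 100 UMIs. Where it was subtracted, the share taken was the estimate given above, which was too high for Saa3. The calculations were tested on simulated counts, and ran in Python 3.11.15 with scipy 1.17.1 and numpy 2.4.6. Alternatives covered the pseudocount, the UMI minimum, scaling, cell weights, the limits of the rule, thinning, the deepest cells and free RNA.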

Additional observations from a re-analysis of the deposited data

Results flagged for a closer look

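Spp1 differed between the libraries in opposite directions in the T cell sets. Its log2 ratio of CPM plus 10, antibody over control IgG, was 2.80 in conventional CD4 T cells and -1.13 in CD8 T cells, each past 1.5-fold. The difference between the sets was not tested, since each group is 1 library. In conventional CD4 T cells 1189 of the 1312 Spp1 UMIs of the antibody library were in 1 cell, and without the top cell of each library the log2 ratio was -0.19. In CD8 T cells 1903 of the 4589 UMIs of the IgG library were in 1 cell, and without the top 10 cells of each library Spp1 was at 50.6 and 42.1 CPM there.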

How the results depend on the processing

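No paired analysis was possible because the mice of a group were pooled into 1 library, and for the same reason no library could be left out. The shares of kept cells and of CD3 T cells stayed inside the counting intervals of the reported ratios under all 9 alternatives, with log2 ratios from 0.05 to 0.29 and from -0.03 to 0.21. With no C1q UMI allowed, the highest of both ranges, their own intervals no longer held 0. The 5 list sums kept their sign under all 15 alternatives run for them. They have no pseudocount, so that choice was not run.

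Counts of genes at least 1.5-fold higher and lower (126 and 116) were 318 and 357 with CPM plus 1, 21 and 25 with CPM plus 50, 65 and 43 with at least 200 UMIs, and 26 and 35 at 2-fold. Genes lower numbered 74 without the 5% deepest members and 70 without members carrying 5 or more UMIs of other cell types' markers.

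Past their counting intervals, but with the same sign, were the following log2 ratios. The naive and recirculating list was at -0.39 without cells with a Cd79a, Ms4a1, Csf1r, Lyz2 or Fcer1g UMI, thinned to 2000 UMIs, and with free RNA subtracted. The activation and costimulation list was at 0.19 with free RNA subtracted and 0.30 without the members carrying other cell types' markers. The Th1 list was at 0.17 with at least 2 Cd4 UMIs, 0.047 without the deepest members, 0.046 with free RNA subtracted and 0.038 without members carrying other markers. The immediate-early list was at 0.29 with each cell weighted alike, 0.40 with at least 2 Cd4 UMIs, 0.30 thinned and 0.32 with free RNA subtracted. The interferon-stimulated list was at 0.41 with each cell weighted alike, 0.35 without cells with Il2ra and Ikzf2 UMIs, 0.36 without cells with Cd79a, Ms4a1, Csf1r, Lyz2 or Fcer1g UMIs, 0.42 thinned, 0.40 without the deepest members, 0.27 with free RNA subtracted and 0.40 without members carrying other markers. The cause was not tested.

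Sub-cluster 4 had a log2 ratio of -1.86 with all genes used and -0.50 at resolution 0.3, where it merged into a cluster of 443 cells. The sub-clusters with their alternatives, and the alternatives on top cells and on other cell types' markers were chosen after seeing the data. Spp1 turned to -0.32 without cells with Cd79a, Ms4a1, Csf1r, Lyz2 or Fcer1g UMIs, to -0.32 without the deepest members, to -0.19 without its top cells and to -0.21 without members carrying other markers. Saa3 was at 0 with free RNA subtracted, because the subtraction set its level to 0 in both libraries. Postn turned to 0.15 without its top cells, and Igfbp4 to -0.017 without the cells with Cd79a, Ms4a1, Csf1r, Lyz2 or Fcer1g UMIs. Nr4a3 and Klf2 kept their direction and stayed past 1.5-fold under all 17 alternatives run for them, from 0.81 to 1.36 and from -1.06 to -0.70.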
